A study of Homo sapiens with 6 samples.

Results

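The baseline transcriptome of control HepG2 cells was described from 3 of the 6 RNA-seq libraries of the series, those labelled as control. This part of the series was chosen with earlier results of these data known. HepG2 is a line grown from a human liver cancer. The 3 Ctrl cultures were transfected with a non-target control siRNA in lipofectAMINE 2000 and harvested 48 h later, and the study calls them biological replicates. No untransfected or lipid-only culture was analysed here, so all levels are those of transfected cells. RNA was selected with oligo(dT) beads, so transcripts without a poly(A) tail, such as most histone mRNAs, are captured poorly. The labels name DMEM as the medium and the study's methods name MEM.

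Hepatocytes, the main cells of the liver, secrete most plasma proteins, assemble lipoproteins, make glucose and bile acids, dispose of nitrogen as urea and modify drugs. This program is held by a network of transcription factors that includes HNF4A, CEBPA and the FOXA family. Fetal hepatocytes carry part of it together with genes that are largely silenced after birth, such as AFP, and liver cancers often express such fetal genes.

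The Ctrl libraries held 34659866, 33527439 and 31045623 counted fragments. Levels of different genes were compared only as FPKM, the fragment count divided by exon length and by a total for the library. A gene was called expressed at an FPKM of at least 1 in all 3 libraries. Ctrl 2 stood apart from the other two libraries, as described with the replicate spread, and Ctrl 3 stood apart in a few interferon-stimulated genes. Without Ctrl 2 the number of expressed genes was 11343 in place of 11251.

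The 5 liver markers used to check the label were all expressed, at levels that differed widely. Albumin (ALB), the main protein of plasma, had an FPKM of 744, 685 and 701 in the 3 libraries. Its fetal relative alpha-fetoprotein (AFP) had 545, 503 and 463. ALB was above AFP in each library, and their ranges did not overlap. APOA1, the main protein of high-density lipoprotein, had 556, 534 and 614, a range that overlapped with that of AFP. TTR, the transthyretin carrier of thyroid hormone and retinol-binding protein, had 34.7, 30.7 and 36.4. GPC3, a cell-surface proteoglycan and marker of liver cancer, was the lowest of the 5 at 10.9, 10.6 and 11.3. In words, the label's markers were present in every library, with TTR and GPC3 far below the other three.

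ALB and AFP are neighbours in 1 gene cluster on chromosome 4, and the next gene of that cluster, AFM, had an FPKM of only 0.10, 0.14 and 0.17. AFM encodes afamin, a vitamin E-binding plasma protein. In GRCh38 with GENCODE 44, ALB lies at chr4:73397114-73421482, AFP at chr4:73431138-73456174 and AFM at chr4:73481745-73504001, all on the plus strand. The 150 bases before the RefSeq start of each gene (GRCh38.p14, plus strand) are shown because they are the promoter-proximal sequence of 2 highly expressed genes and 1 gene near zero from the same cluster. They come from chr4:73404137-73404286 for ALB, chr4:73436071-73436220 for AFP and chr4:73481595-73481744 for AFM. The stretches of ALB and AFP lie inside the GENCODE 44 intervals above, which begin upstream of these RefSeq starts. That of AFM ends just before its interval. Capitals mark TATAAA, the core of the TATA box, and GTTAAT, a motif found in many liver promoters, searched on both strands.
ALB: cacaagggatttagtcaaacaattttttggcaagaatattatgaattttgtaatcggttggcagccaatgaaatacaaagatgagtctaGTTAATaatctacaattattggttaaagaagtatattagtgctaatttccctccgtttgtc
AFP: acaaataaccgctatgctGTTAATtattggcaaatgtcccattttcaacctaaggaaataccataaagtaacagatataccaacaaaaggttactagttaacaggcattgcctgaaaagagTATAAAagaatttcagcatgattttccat
AFM: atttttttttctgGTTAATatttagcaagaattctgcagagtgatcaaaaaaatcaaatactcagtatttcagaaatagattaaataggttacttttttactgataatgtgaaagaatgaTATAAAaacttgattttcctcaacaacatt
GTTAAT occurred once in each of these stretches, TATAAA in those of AFP and AFM, and the 2 motifs did not overlap there. Over the 250 bases before all 35093 RefSeq starts, a longer stretch than the 150 shown, GTTAAT occurred in 6.23% and TATAAA in 10.7%. ALB, AFP and AFM had no further hit of either motif in their own 250 bases. AFM thus shared both motifs with AFP and GTTAAT with ALB.

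Of the 30987 genes with counts analysed here, 20006 had at least 1 count in every Ctrl library, 3418 had none in any, and 11251 were expressed. The authors' tables list genes seen in at least part of the series, so these shares apply to that set and not to the whole annotation. Among the 16803 protein-coding genes, 10118 were expressed, which is 60.2%. Their levels peaked between an FPKM of 1 and 10, with 5749 genes there, 4003 between 10 and 100, 482 between 100 and 1000 and 52 above that. The median of all protein-coding genes was an FPKM of 2.59, and 27.0% reached 10. Of the 14184 other genes, 1133 were expressed.

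**Figure D1:**
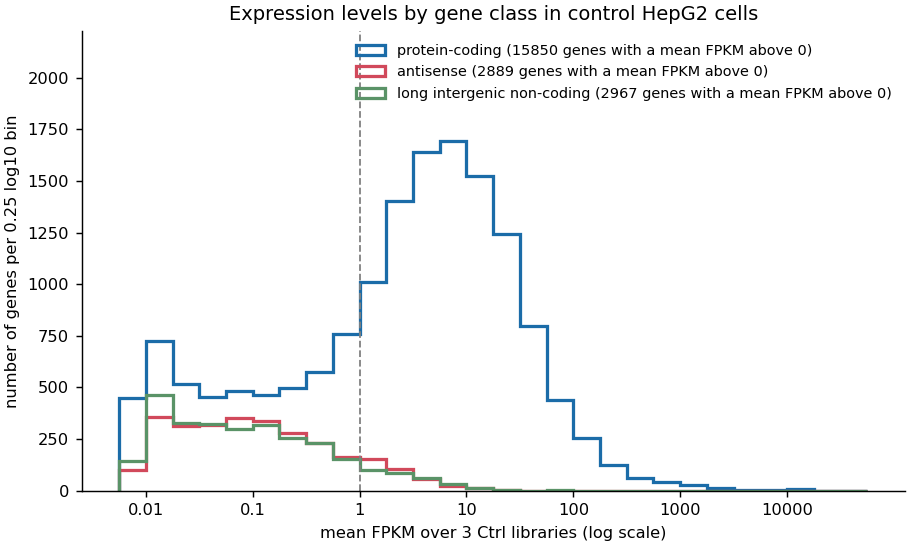
Histograms of the mean FPKM over the 3 Ctrl libraries (x axis, log scale) for the 15850 protein-coding, 2889 antisense and 2967 long intergenic non-coding genes with a mean above 0; the y axis counts genes per bin and the dashed line marks an FPKM of 1. Most protein-coding genes lie to the right of the line and most genes of the other 2 classes to its left.

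Protein-coding genes took 95.5%, 95.1% and 95.7% of the counts in the 3 libraries. The 2 mitochondrial ribosomal RNAs took 2.96%, 3.27% and 2.76%. Long intergenic non-coding RNAs took 0.318% ± 0.0209 (SD, n = 3), processed transcripts 0.316% ± 0.00428 and antisense genes 0.309% ± 0.00917. Only 265 of 3546 long intergenic and 305 of 3331 antisense genes were expressed. The authors do not state whether strand was used in counting, so the reads of an antisense gene and of its partner cannot be told apart.

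The mitochondrial genome held 15.5%, 17.1% and 14.6% of the counts, highest in Ctrl 2. MT-CO2, a cytochrome c oxidase subunit, had the highest FPKM of any gene, at 21796 ± 839 (SD, n = 3). MT-ND4, a subunit of complex I, followed at 17274 ± 1536, and its range did not reach that of MT-CO2. The large ribosomal RNA MT-RNR2 (15805 ± 916) and MT-CO3 (15560 ± 642) could not be told apart. By count rather than by length, MT-RNR2 led with a mean of 890084, ahead of MT-ND4, MT-CO1, MT-CO2 and MT-CO3. The lowest of the 13 mitochondrial protein genes was MT-ND6, the one encoded on the light strand, at 1197 ± 194. All 13 were expressed.

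Among nuclear protein-coding genes, FTL, the light chain of the iron store ferritin, had the highest level, with 7988, 7207 and 8441 in the 3 libraries. Its partner FTH1 had 1774 ± 39.97. TMSB10, an actin-binding peptide, had 2745 ± 264, and the ribosomal protein RPS18 2668 ± 309. The fifth was APOA2, a protein of high-density lipoprotein, at 2828, 2395 and 2462, the highest plasma protein gene in the data. EEF1A1, the translation elongation factor that brings transfer RNA to the ribosome, followed at 2273 ± 197. Of the 82 cytosolic ribosomal protein genes 80 were expressed, with a median FPKM of 547, and together they took 8.97% ± 0.730 of the counts. Only uniquely mapped reads were counted, so genes with many processed copies, such as FTL, EEF1A1 and the ribosomal proteins, have uncertain levels.

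Transcripts were concentrated in few genes. The 100 genes with the most counts took 32.5%, 32.8% and 31.5% of each library, and 21.5% ± 0.692 when the mitochondrial genome was set aside. The 1000 highest genes took 61.3% ± 0.456. In Ctrl 1, Ctrl 2 and Ctrl 3, 437, 458 and 467 genes held 50% of the counts.

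Plasma carrier proteins formed one of the highest lists. Of its 24 members 20 were expressed (83.3%, against 60.2% of all protein-coding genes, the share to set beside each list), 16 reached an FPKM of 10 and 9 reached 100, and the median was 42.0. Below APOA2 came AHSG, the mineral-binding fetuin-A, at 822, 805 and 790. ALB was next, followed by AMBP, the precursor of alpha-1-microglobulin and bikunin, at 614, 539.9 and 671. The ranges of AMBP and APOA1 overlapped, as did those of APOA1 and APOH, a phospholipid-binding protein (543, 494 and 492). TF, the iron carrier transferrin, had 484, 464 and 462. At the other end stood FETUB at 0.57, 0.51 and 0.51, AFM, and GC, the vitamin D-binding protein, with 4, 1 and 2 counts and an FPKM of at most 0.05. Carriers abundant in plasma were thus found at both ends of the scale in these cells.

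Of 19 acute-phase proteins and protease inhibitors 13 were expressed (68.4%), with a median of 67.0. SERPINA1, the alpha-1-antitrypsin that inhibits neutrophil elastase, led at 769.8, 726 and 767. ITIH2, a heavy chain that binds hyaluronan, had 302, 291 and 286. The gamma chain of fibrinogen, FGG, had 236, 219.9 and 202. The orosomucoids ORM1 (212 ± 20.2) and ORM2 (196 ± 16.9) are near-identical copies whose reads can be split between them. ITIH4 had 0.06, 0.03 and 0.07, LBP, which carries bacterial lipopolysaccharide, at most 0.02, and SAA2 had no count in any library. SAA4, the constitutively expressed serum amyloid A, had 51.9, 37.1 and 54.99. CRP and SAA1 were not analysed here.

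SERPINA3, an inhibitor of chymotrypsin-like proteases, is listed under 2 overlapping gene models on the same strand of chromosome 14. One (ENSG00000196136) had an FPKM of 0.18, 0.20 and 0.19 and the other (ENSG00000273259) 63.0, 56.9 and 62.9. How reads were divided between them is not given, so the level of the gene itself cannot be read from either row. The acute-phase list holds the first model.

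Coagulation and fibrinolysis had 15 of 21 members expressed (71.4%) and a median of 10.2. SERPINF2, the inhibitor of plasmin, and F2, prothrombin, led at 111 ± 2.76 and 109 ± 1.06 and could not be told apart. TFPI, the inhibitor of the tissue factor pathway, had 81.4 ± 6.42, SERPIND1, heparin cofactor II, 75.9 ± 2.83, and PROC, the anticoagulant protein C, 63.4 ± 4.88. PLG, plasminogen, was near zero at 0.02, 0.01 and 0.04, as were KLKB1 and HRG at no more than 0.02.

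Complement was more uneven, with 12 of 24 members expressed (50%) and a median of 1.06. C3, the central component, is counted with the acute-phase list and had 173, 194 and 187. CFI, the protease that inactivates C3b, had 50.4 ± 0.895, C4BPB, a chain of C4b-binding protein, 50.2, 46.6 and 51.2, and C8G 27.1, 28.9 and 30.2. C7 and CFHR2 had no count in any library, which allows up to 3 counts each, or 0.0866 to 0.0966 CPM (counts scaled to the library total). C4A and C4B are near-identical neighbours, so their values of 4.36 and 4.53 are uncertain.

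Of 21 apolipoprotein and lipoprotein assembly genes 15 were expressed (71.4%). APOE, which takes remnant particles to their receptors, led at 692, 674 and 839. APOC1 had 254, 214 and 228, APOC3, an inhibitor of lipoprotein lipase, 66.2, 57.1 and 69.9, and the high-density lipoprotein receptor SCARB1 53.2, 58.0 and 56.8. APOB, the core protein of very-low-density particles, had 66.3, 73.2 and 62.7. MTTP, the transfer protein that loads lipid onto APOB, had 0.19, 0.14 and 0.14, and CETP, which exchanges lipids between lipoproteins, had a mean of 0.32. APOB mRNA was thus abundant where MTTP mRNA was scarce.

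Of the 26 hepatocyte transcription factors 21 were expressed (80.8%), with a median of 7.06. NR0B2, the orphan receptor SHP that represses bile acid synthesis, was highest at 78.1, 70.9 and 84.7. CEBPA had 62.1, 62.0 and 66.6 and CEBPB 39.6, 42.8 and 45.4. HHEX, HNF4A and FOXA1 had 29.4 ± 1.83, 28.8 ± 1.53 and 28.4 ± 1.90, and neighbours in that order could not be told apart. The lowest were ONECUT1 (HNF6) at 0.28, 0.39 and 0.36, KLF15 at 0.26 ± 0.03, and NR1I3, the drug-sensing receptor CAR, at 0.12, 0.05 and 0.19. HNF4G and ONECUT2 were the others below 1, and all 5 were below it in every library.

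Enzymes of adult liver metabolism were split. In the urea cycle and amino acid breakdown 13 of 18 were expressed (72.2%), with a median of 4.19. HPD, an enzyme of tyrosine breakdown, had 419, 386 and 424, and the next step HGD 51.0, 47.2 and 51.5. ASS1 and ASL, which act in turn in the urea cycle, had 30.9 ± 2.37 and 28.3 ± 2.33 and could not be told apart. CPS1, the entry enzyme of the cycle, had 2.97, 3.07 and 3.02. OTC, the step after CPS1, had no count in any library, ARG1, the last step, had 0.03, 0.02 and 0.04, and TDO2, which opens tryptophan breakdown, at most 0.02.

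Of 13 genes of glucose production and storage 7 were expressed (53.8%), with a median of 1.35. PCK2, the mitochondrial form of phosphoenolpyruvate carboxykinase, led at 39.6, 40.6 and 38.2. The cytosolic form PCK1 had an FPKM of 0.02, 0.02 and 0.04, from 4, 4 and 6 counts. G6PC, the catalytic subunit of glucose 6-phosphatase, had 0.29, 0.33 and 0.35, and its transporter partner SLC37A4 16.2, 15.8 and 17.1.

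Bile acid genes had 9 of 17 members expressed (52.9%). CYP27A1, which starts the alternative route of bile acid synthesis, had 107, 104 and 118. CYP7A1, the rate-limiting enzyme of the classical route, had 0.10, 0.16 and 0.21, and CYP8B1 a mean of 0.09. ABCC2, an exporter of conjugates into bile, had 38.3, 42.8 and 43.0. The bile salt export pump ABCB11 and the uptake carriers SLC10A1 and SLCO1B1 did not exceed 0.04 in any library.

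Of the 15 drug-metabolizing cytochrome P450 genes 5 were expressed (33.3%), none reached an FPKM of 10, and the median was 0.13. CYP1A1, inducible through the aryl hydrocarbon receptor, was highest at 2.15, 1.93 and 2.90, and CYP2J2, CYP3A5, CYP2D6 and CYP2E1 followed with overlapping ranges and means from 1.56 to 1.95. CYP3A4, the main drug oxidase of adult liver, had 0.07, 0.07 and 0.09, and CYP2C19 at most 0.01. Over all 47 CYP genes, which include those of sterol and bile acid metabolism, 18 were expressed, and CYP27A1 was the highest. Conjugating and oxidizing enzymes outside that family were higher, with 16 of 25 expressed (64.0%) and a median of 7.35. ALDH1A1, a retinal dehydrogenase, had 316, 284 and 329.8 and GSTO1 328, 258 and 317, with overlapping ranges. The sulfotransferases SULT2A1 and SULT1A1 had 84.6 ± 4.91 and 75.6 ± 6.83, the esterase CES1 54.7 ± 0.820 and the glucuronosyltransferase UGT2B7 23.2 ± 2.80. GSTM1, NAT2 and the class I alcohol dehydrogenases ADH1A, ADH1B and ADH1C did not exceed 0.09 in any library.

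**Figure D2:**
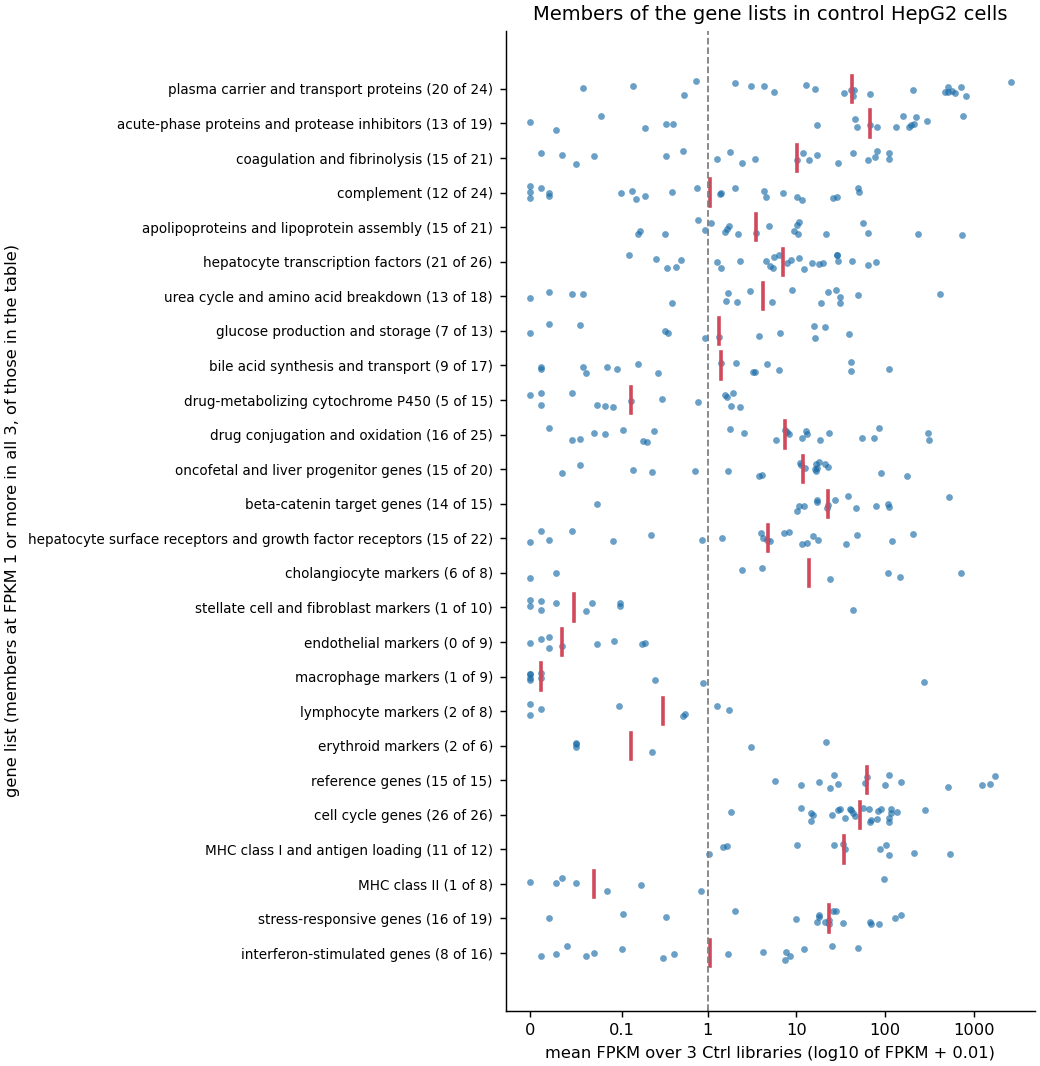
Mean FPKM over the 3 Ctrl libraries (x axis, log scale with 0.01 added) of each member (point) of the 26 gene lists (rows), with the median as a red bar and an FPKM of 1 as a dashed line; each label gives the members expressed in all 3 libraries of those analysed. Plasma proteins reach 2561, whereas the stellate, endothelial, macrophage and red cell lists have medians of at most 0.13, with ACTA2, LYZ and HBE1 far to the right.

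Pairs of related proteins, in which 1 form is fetal or broadly expressed and the other typical of adult liver, were compared within each library. In 9 of 11 pairs the fetal or broad form was higher in all 3 libraries, and in 2 pairs the liver form was. The pyruvate kinase PKM had 373, 347 and 388 against 3.68, 4.21 and 3.49 for PKLR, a mean log2 ratio of 6.61 ± 0.22 (SD, n = 3). The glucose transporter SLC2A1 had 626, 621 and 662 against 1.4, 1.33 and 1.33 for SLC2A2, a log2 ratio of 8.88 ± 0.08. IGF2 had a mean FPKM of 175.5 against 0.01, 0.01 and 0.02 for IGF1, which had only 3, 3 and 5 counts.

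Smaller gaps were seen elsewhere. ACACA, the acetyl-CoA carboxylase of fatty acid synthesis, exceeded ACACB by 3.27 ± 0.13 on the log2 scale, and CYP3A7, the fetal cytochrome, exceeded CYP3A4 by 3.35 ± 0.22 although both were below 1. PYGB exceeded PYGL by 0.82 ± 0.10, and MAT2A exceeded MAT1A by 0.32 ± 0.10, so the liver forms of glycogen phosphorylase and methionine adenosyltransferase were present at 21.1 ± 0.156 and 38.6 ± 0.202. The liver form was higher for ALB over AFP and for PFKL (43.0 ± 1.39) over PFKP (13.1 ± 1.44).

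**Figure D3:**
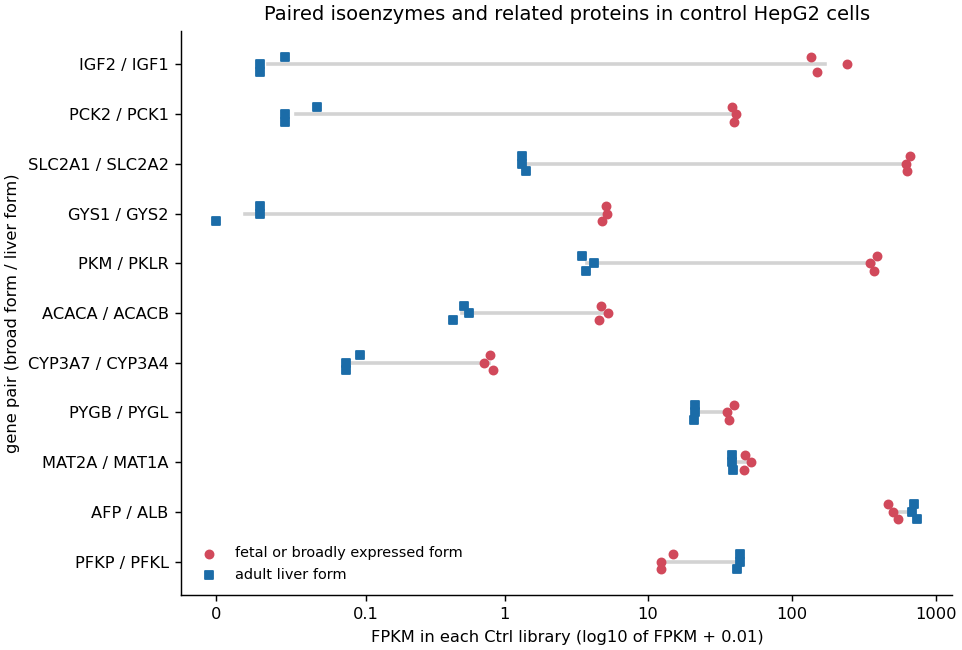
FPKM in each Ctrl library (x axis, log scale with 0.01 added) of the fetal or broadly expressed form (red circles) and the adult liver form (blue squares) of 11 pairs, ordered by the ratio of their means; grey lines join the 2 forms. Red lies to the right of blue in 9 pairs and to the left in the 2 lowest rows, PFKP and PFKL, and AFP and ALB.

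Of 20 oncofetal and liver progenitor genes 15 were expressed (75.0%), with a median of 11.9. IGF2, a growth factor abundant in fetal tissue, was highest, at 148, 243 and 136, with Ctrl 2 1.71 times the mean of the other two. Several genes overlap IGF2 on the same strand in GENCODE 44, among them the INS-IGF2 readthrough. PEG10, an imprinted gene derived from a retrotransposon, had 90.6, 100.1 and 79.1. The RNA-binding proteins IGF2BP1, IGF2BP2 and IGF2BP3, all typical of fetal tissue, had 16.8 ± 1.66, 22.9 ± 1.52 and 16.6 ± 0.222. DLK1, a marker of hepatoblasts, had 17.8 ± 1.23. H19, the imprinted non-coding neighbour of IGF2, had only 0.41, 0.16 and 0.12, and LIN28A and PROM1 did not exceed 0.03.

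HepG2 is known to carry an activating deletion in CTNNB1, the gene of beta-catenin, which drives transcription through TCF factors in the Wnt pathway. Of 15 known target genes 14 were expressed (93.3%, against 60.2% of all protein-coding genes), with a median of 22.9. DKK1, a secreted inhibitor of Wnt receptors, had 541, 474 and 547. CCND1, cyclin D1, had 106, 108 and 119, NOTUM, which inactivates Wnt ligands, 104, 111 and 108, and the transcription factor SP5 73.0, 78.0 and 82.3. AXIN2, the feedback scaffold, had 22.4 ± 0.976, LGR5 16.95 ± 0.635 and GLUL, glutamine synthetase of the pericentral hepatocyte, 22.8 ± 0.286. LEF1 was near zero at 0.06, 0.03 and 0.05. Whether the deletion has a part in these levels was not tested.

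Of 22 surface receptors 15 were expressed (68.2%). ASGR2 and ASGR1, the 2 chains of the hepatocyte asialoglycoprotein receptor, led at 208, 197 and 210.1 and at 117, 112 and 125. FGFR4, the receptor for the gut hormone FGF19, had 45.5, 49.2 and 50.1, with its partner KLB at 4.25 ± 0.0985. The transferrin receptor TFRC had 35.7 ± 0.566. In the EGF receptor family, ERBB3 had 17.5 ± 1.33 and ERBB2 13.3 ± 0.610, whereas EGFR had 0.23, 0.24 and 0.20 and ERBB4 no FPKM above 0. The growth hormone receptor GHR and the glucagon receptor GCGR did not exceed 0.01.

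Markers of other liver cell types, apart from the bile duct list, were mostly near zero in a line that should hold 1 cell type. The 11 liver lists, from plasma carriers to drug conjugation, had 146 of 223 members expressed (65.5%), with a median of 4.35. That share was close to the 60.2% of all protein-coding genes. Over the 6 lists for cholangiocytes, stellate cells, endothelium, macrophages, lymphocytes and red cells, 12 of 50 members were expressed (24.0%), with a median of 0.04. Of those 12, the bile duct list gave 6, out of 8 members. KRT19, a keratin of bile ducts, had 666, 650.4 and 822, SPP1, osteopontin, 153, 131 and 153, EPCAM 109, 101 and 109, and SOX9 22.7, 26.2 and 22.5. KRT7 had 2.12, 2.09 and 3.10, and CFTR no FPKM above 0. The hepatocyte keratins KRT8 and KRT18 stood at 1285 ± 152 and 644 ± 60.1.

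None of 9 endothelial genes was expressed. Of 10 stellate and fibroblast genes only ACTA2, smooth muscle actin, was, at 44.04, 44.4 and 42.5, while COL1A1 had 0.03, 0.04 and 0.03 and PDGFRA and LUM no FPKM above 0. Other genes overlap ACTA2 in GENCODE 44. Of 9 macrophage genes only LYZ, lysozyme, was expressed, at 286, 259 and 264, while CSF1R, CD163, PTPRC and TYROBP did not exceed 0.01. The red cell list had HBE1, embryonic epsilon-globin, at 21.6 ± 1.48 and HBG2 at 3.06 ± 0.258, but the GENCODE 44 model of HBE1 spans other globin and olfactory receptor genes. Of the lymphocyte genes, CD3D, a chain of the T cell receptor complex, had 1.26 ± 0.308.

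Antigen presentation was split by class. Of 12 genes of MHC class I and antigen loading 11 were expressed (91.7%), and the one left out, NLRC5, the activator of class I genes, had 0.91, 1.08 and 1.08. CALR, a chaperone of class I loading, had 557, 522 and 527, B2M, the shared light chain, 115, 95.05 and 123, and HLA-C 83.5, 81.0 and 97.8. Of 8 class II genes only CD74, the invariant chain, was expressed, at 93.4, 93.0 and 106. HLA-DRA did not exceed 0.04 and CIITA, the activator of class II genes, had 0.01 in each library. HLA genes are highly variable between people, so reads that differ from the reference may be lost.

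All 26 cell cycle genes were expressed, with a median of 51.4. PCNA, the sliding clamp of DNA replication, led at 292, 252 and 284, TYMS, which makes thymidylate, had 140, 128 and 134, and PLK1, a mitotic kinase, 114, 120.3 and 113. The cyclin-dependent kinase inhibitor CDKN1A had 111, 106 and 128. CDKN2A was lowest at 1.98, 1.62 and 1.96. The 15 reference genes often used for normalization were all expressed too, from GAPDH (1769, 1539 and 1786) to IPO8 (5.93, 5.74 and 5.76). In Ctrl 2 the reference genes were lower than in the other two by a median of -0.16 on the log2 scale, with 4 of 15 higher. POLR2A, a subunit of RNA polymerase II, was 1.42 times as high in FPKM, whereas SDHA (63.0, 61.9 and 62.4) and TBP (11.4, 11.4 and 11.2) stayed close. PAIP1, the poly(A)-binding protein partner that the study knocked down elsewhere in the series, had 26.8, 23.0 and 26.0 here.

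Of 19 stress-responsive genes 16 were expressed (84.2%), with a median of 23.2. MT2A, a metallothionein, had 140, 151 and 157, HSPA5, the chaperone of the endoplasmic reticulum, 134, 127 and 122, and HMOX1, heme oxygenase, 66.6, 62.7 and 71.1. Immediate-early genes were low, with EGR1 at 0.33 ± 0.0700 and FOS at 0.10 ± 0.0252, and CHAC1 did not exceed 0.01. Metallothionein genes are close copies whose reads can be split between them.

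Several gene clusters showed large steps between neighbours. In the AKR1C cluster on chromosome 10, AKR1C1, AKR1C2 and AKR1C3, reductases of steroids and aldehydes with similar sequences, had 145 ± 27.4, 247 ± 43.0 and 206 ± 33.5, while AKR1C4, the liver-typical member at chr10:5195462-5218949, had 2.30 ± 0.442. In the alcohol dehydrogenase cluster on chromosome 4, the widely expressed ADH5 (chr4:99070978-99088801) had 68.9 ± 6.12, ADH4 5.93 ± 0.196 and ADH6 8.33 ± 0.541. The class I genes that follow it in coordinate order were near zero. In the SERPINA cluster on chromosome 14, SERPINA1 (chr14:94376747-94390693) lay between SERPINA6, which carries cortisol, at 44.5 ± 1.00 and SERPINA11 at 13.7 ± 1.88, and SERPINA12 had no FPKM above 0. In the apolipoprotein cluster on chromosome 11, APOA1 (chr11:116835751-116837622) and APOC3 were far above APOA4 (1.74 ± 0.192) and APOA5 (10.4 ± 0.810). On chromosome 19, APOE (chr19:44905791-44909393) and APOC1 were followed by APOC4 at 0.78 ± 0.0819 and APOC2 at 1.55 ± 0.0907. The 3 fibrinogen chains on chromosome 4 rose in the order FGB, FGA and FGG in every library, at 79.9 ± 7.15, 131 ± 10.2 and 219 ± 17.1, although the protein holds them in equal numbers.

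Other gene families, chosen after their levels were seen, gave reference points. All 78 mitochondrial ribosomal proteins and all 35 aminoacyl-tRNA synthetases were expressed, as were 39 of 40 proteasome subunits and 37 of 38 complex I subunits. Of 28 olfactory receptors 1 was, OR51B4 (2.63 ± 0.157), which lies within the HBE1 model. Of 27 HOX genes 4 were expressed, with HOXD1 highest at 6.33 ± 0.114. Of 34 collagen chains 6 were, led by COL18A1 (50.7 ± 5.35), whose product releases endostatin, and COL9A3 (44.6 ± 3.40), a chain known from cartilage. Of 482 ZNF genes 202 were expressed (41.9%), and of 339 genes with an SLC symbol 189 (55.8%), with SLC2A1 the highest.

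Among genes that do not encode proteins, those of the mitochondrial genome and its nuclear copies led. MT-RNR1, the small ribosomal RNA, had 2971 ± 460. MTATP6P1, a nuclear copy of mitochondrial sequence, had 2747 ± 254, and its reads are not readily told apart from mitochondrial ones. MT-TL1 and MT-TD, both transfer RNAs, had 565 ± 80.6 and 249 ± 22.5. UBE2Q2P6, a pseudogene, had 492 ± 87.0. RP4-614O4.11, labelled antisense, had 222 ± 22.7 but overlaps the coding gene EIF6, and LRRC75A-AS1, a host of small nucleolar RNAs, had 172 ± 12. MALAT1 and NEAT1, nuclear long non-coding RNAs named here after their values were seen, had 10.3, 19.8 and 8.88 and 5.58, 9.18 and 5.82. Both were highest in Ctrl 2, at 2.07 and 1.61 times the mean of the other two libraries.

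The libraries were close across genes. Over the 20006 genes with a count in all 3, Pearson's r of log2(CPM + 1) was 0.998, 0.998 and 0.998 for the 3 pairs and Spearman's rho 0.989, 0.991 and 0.989, across genes that are not independent replicates. CPM here are counts scaled to the effective library size from TMM. The 13076 genes with a mean CPM of at least 1 had a median coefficient of variation (CV) of 6.94% over the 3 libraries. It was 6.01% without Ctrl 1, 4.57% without Ctrl 2 and 6.51% without Ctrl 3. A CV over 2 libraries is not directly comparable with one over 3. The CV expected from counting error, 1 over the square root of the mean count, had a median of 3.65%. From 100 to 1000 CPM the median CV was 5.55% against 1.34%. To check for duplicate libraries, the mean squared difference was set against the counting variance. It was 4.93 times that variance for Ctrl 1 and Ctrl 3, and 13.997 and 13.6 times for the pairs with Ctrl 2. The common biological CV was 7.29%, and 4.98% without Ctrl 2. Counting error covers sampling of reads only, since no molecular identifiers were used.

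**Figure D4:**
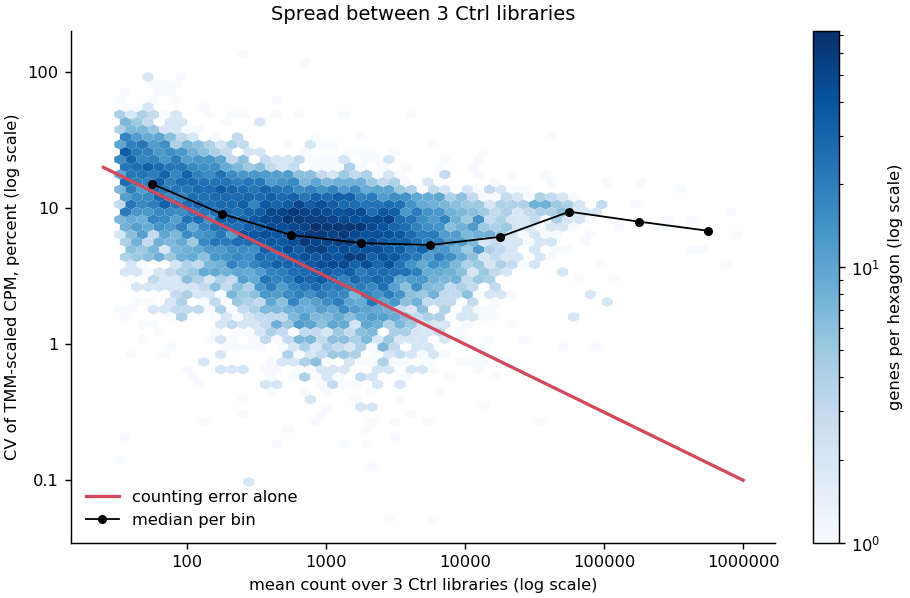
CV of TMM-scaled CPM over the 3 Ctrl libraries (y axis, percent, log scale) against the mean count (x axis, log scale) for genes with a mean CPM of at least 1; shading gives genes per hexagon, black points the median per bin and the red line counting error alone. The medians leave the line as counts grow, with a median CV of 5.91% from 10 to 100 CPM and 8.88% from 1000 CPM up.

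The difference of Ctrl 2 followed gene family and transcript length. No family was compared with other genes of the same length, so family and length cannot be told apart here. All 80 cytosolic ribosomal protein genes with a mean CPM of at least 1 were lower in Ctrl 2 than in the mean of the other two, by a median of -0.25 on the log2 scale, as were all 78 mitochondrial ribosomal proteins (-0.20) and 38 of 39 proteasome subunits (-0.19). Of the 80 cytosolic ribosomal protein genes, 79 were higher in Ctrl 1 than in the mean of the other two (0.17), and 71 in Ctrl 3 (0.06). Mitochondrially encoded proteins were higher in Ctrl 2 in 12 of 13 cases (0.19). This family departed more in Ctrl 3, where 0 of 13 were higher than the mean of the other two (-0.23), so its value in Ctrl 2 partly reflects Ctrl 3. When 11625 protein-coding genes were split into 5 equal groups by the exon length that their counts and FPKM imply, the shortest (0.192 to 2.07 kb) had a median of -0.14 in Ctrl 2 and the longest (6.13 to 35.3 kb) 0.08. Over all genes the median was -0.02. The library totals implied by the FPKM values were 37343571 and 37343925 for Ctrl 1 and Ctrl 2 and 33453490 for Ctrl 3, of which the counts made up 92.8%, 89.8% and 92.8%. The FPKM of Ctrl 2 were therefore divided by a number about 3% larger, relative to its counts, than those of the other two. Whether each of these is the mapped total of its own library is uncertain, since those of Ctrl 1 and Ctrl 2 are nearly equal while their counts are not.

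**Figure D5:**
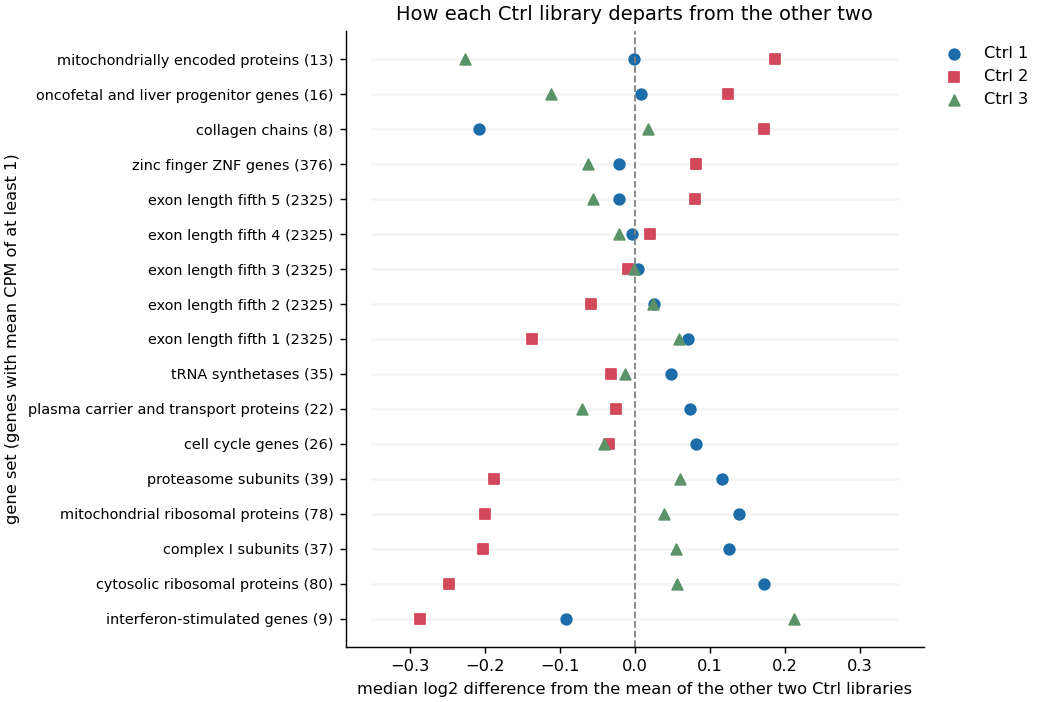
Median log2 difference of each Ctrl library from the mean of the other two (x axis) for gene families, lists and 5 groups by exon length (rows, with the number of genes with a mean CPM of at least 1); circles are Ctrl 1, squares Ctrl 2 and triangles Ctrl 3. Among the rows drawn, Ctrl 2 runs from -0.29 for interferon-stimulated genes and -0.25 for cytosolic ribosomal proteins to 0.19 for mitochondrially encoded proteins, and Ctrl 3 from -0.23 for mitochondrially encoded proteins to 0.21 for interferon-stimulated genes.

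Few single genes varied strongly. Of the 9115 genes with a mean CPM of at least 10, 11 had a CV over 30%, and 6 differed by more than 2-fold between Ctrl 2 and the mean of the other two, against 1 each for Ctrl 1 and Ctrl 3. The protein-coding gene with the highest CV was IFI6, an interferon-induced mitochondrial protein, at 113%, with an FPKM of 9.16, 8.02 and 58.3. IGF2 and C4A were among the 8 highest, with CVs of 33.96% and 31.7%. So were POLR2J3, REL, EPPK1 and ZFHX3, all highest in Ctrl 2 with folds from 1.57 to 2.14, and ISG15, a ubiquitin-like protein induced by interferon, with 43.1, 36.0 and 69.0.

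Of 16 interferon-stimulated genes 8 were expressed (50%), and they did not move together. In Ctrl 3, IFI27 was 11.8 times and IFI6 6.79 times the mean of the other two libraries, and ISG15 1.74 times. MX2 (7.73, 7.38 and 7.65) and OAS3 (4.10, 4.06 and 4.33) were 1.013 and 1.06 times that mean. IFIT1, IFIT2 and RSAD2 did not exceed 0.06 in any library. Without Ctrl 3 the mean FPKM of IFI6 was 8.59 in place of 25.2 and that of IFI27 1.86 in place of 8.55.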

How the data were processed

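Levels were measured by directional paired-end RNA-seq of poly(A) RNA from 3 Ctrl cultures. Per the study's methods, the authors trimmed reads with FASTX-Toolkit 0.0.13, aligned them to GRCh38 with TopHat2 (4 mismatches allowed) and kept uniquely mapped reads. The authors deposited raw fragment counts per gene, without normalization, for 30987 genes, and FPKM with 2 decimals for 30706 of them. The 281 genes without an FPKM had at most 3 counts in any Ctrl library and were set to 0. Which program counted the fragments, whether it used strand, and which annotation it read were not given in the sources used here.

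Only the Ctrl columns were read, grouped by label. Every comparison is within 1 group, so no test between groups was run and no p-value is given. Spread is the SD over 3 libraries. Effective library sizes were from TMM in edgeR 4.0.16 (R 4.3.3), and the biological coefficient of variation from estimateDisp with an intercept only. DESeq2 1.42.0 gave alternative size factors. These steps were tested on simulated data. Tables were joined in Python 3.11.15 with numpy 2.4.6, pandas 2.3.3 and scipy 1.17.1, and drawn with matplotlib 3.10.9. Coordinates are from GENCODE 44 (GRCh38), and promoters from RefSeq (GRCh38.p14). Depth was 31045623 to 34659866 counts, so 3 counts stand for 0.0866 to 0.0966 CPM, counts scaled to the library total.

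The libraries, the 26 gene lists, 11 pairs and 11 clusters were chosen with earlier results of these data known. Named genes were the 5 markers, the 15 protein-coding and 8 other genes with the highest mean FPKM, the 5 with the highest mean count, up to 6 highest and 3 lowest members of each list, all genes of the pairs and clusters, the 8 protein-coding genes with the highest CV at a mean CPM of at least 10, and PAIP1. Other names were added after their values were seen. Genes of chromosome Y stay in the totals but are not named or listed by chromosome, and some genes that the rule names are not reported here, nor are pairs that hold one. Alternatives covered thresholds, scaling, counts against FPKM or TPM, and leaving out each library.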

Additional observations from a re-analysis of the deposited data

How the results depend on the processing

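All other rules tried for the number of detected genes stayed within 1.5 times the reported count, from 14697 genes with at least 10 counts in all 3 libraries to 27569 with a count in any. The number of expressed genes fell to 6660 at an FPKM of at least 5 and ran from 11605 to 12720 under the other thresholds. Leaving out each library in turn gave 20687 to 21128 detected genes and 11343 to 11390 expressed ones.

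By summed FPKM in place of counts, protein-coding genes held 93.5%, the mitochondrial genome 31.1% and the 100 highest genes 51.3%. Without the mitochondrial chromosome, protein-coding genes held 98.2% of the counts and the 100 highest genes 21.5%. With each library left out in turn, these shares of counts were 95.3% to 95.6%, 15.02% to 16.3% and 32.0% to 32.7%.

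The median CV was 9.98% with no filter beyond a count in all 3 libraries and 5.86% at a mean CPM of at least 10. Total counts, RLE factors and FPKM gave 6.83% to 7.05%. It was 4.57% to 6.51% when 1 library was left out, lowest without Ctrl 2, and the common biological CV was 4.98% to 8.33%. The mean Pearson r was 0.997 on log2(FPKM + 1) and 0.993 on log2(FPKM + 0.1).

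No pair compared in counts not divided by length reversed its order. TPM made from the FPKM gave 1445 for ALB and 69.0 for TTR, since FPKM summed to 480363 to 499948 per library. At an FPKM of at least 5 the count of expressed members moved by over 1.5 times in 7 of 26 lists. Leaving out Ctrl 2, an alternative added after seeing the data, moved none by that much. No paired analysis was possible because only 1 group enters. With 3 libraries, SDs are themselves imprecise, and genes near 1 count cannot be ordered at this depth.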

Other observations

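The liver secretion genes were also searched for promoter motifs, as a description only. Of the 80 genes of the plasma carrier, acute-phase, coagulation, complement and lipoprotein lists with a RefSeq promoter here, 16 (20%) held GTTAAT and 20 (25%) the C/EBP-type TTGCNNAA, on either strand, in the 250 bases before the start. Among 7743 such promoters of expressed protein-coding genes the shares were 3.36% and 5.83%. Over all 35093 RefSeq starts they were 6.23% and 9.05%. The 80 genes were not limited to expressed ones. TATAAA, a general promoter motif, had the same order, at 17.5% of the 80, 4.75% of the expressed and 10.7% of all. The higher share among the 80 was thus not limited to the GTTAAT and C/EBP-type motifs. CCAAT occurred in 35% of the 80, 35.9% of the expressed and 32.0% of all. These genes share ancestry and neighbourhoods, so they are not independent, and no test was made.

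Chromosomes differed in the share of their protein-coding genes expressed. It was 65.6% on chromosome 16 and 65.5% on chromosome 14, against 48.4% on chromosome X and 53.2% on chromosome 4, which holds the albumin and fibrinogen clusters. Among expressed genes the median FPKM was, among nuclear chromosomes other than Y, highest on chromosome 20, at 13.8, and lowest on chromosome 13, at 4.69. Differences between chromosomes were not tested, and copy numbers of these cells were not measured here.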
